A study of Mus musculus with 8 samples.

Results

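The genes described here are those of the proteasome: its subunits, its activators, its inhibitor and the chaperones that assemble it. They were chosen by symbol. Every row with values whose symbol begins with Psma to Psmg and a number was taken, pseudogenes were left out, and so were the inducible catalytic subunits Psmb8, Psmb9 and Psmb10. This gave 47 of the 18835 genes with values. Psmb11, the catalytic subunit of the thymus, also matched by symbol but had no values. Psme3ip1 and Psmc3ip matched by symbol only: they are named after proteasome proteins that they bind, and are no part of the particle.

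Autoimmune myocarditis had been induced in male BALB/cAJcl mice (age 10 weeks) by immunization with cardiac myosin, and RNA was sequenced from heart tissue in week 3. The treated group (4 libraries) was injected into the peritoneum with VEGF-C C156S, at 1 µg per day on days 7 to 10 after immunization; this variant of a lymphatic growth factor acts through its receptor on lymphatic endothelium. The control group (4 libraries) was injected with PBS at the same times. Both groups were immunized, and no sample here is from an animal without immunization. The series title names lymphatic endothelial cells, but the tissue label of every sample is heart: the 8 cardiomyocyte markers averaged between 17.37 and 17.90 on the log2 scale in each library, and the 6 lymphatic endothelial markers between 10.94 and 11.64 in PBS, far below them.

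The proteasome is the main protease of the cytosol and nucleus and degrades proteins tagged with ubiquitin. Its core particle is a barrel of alpha rings, which gate the entry, and beta rings, which hold the active sites. The regulatory particle caps the barrel: ATPases in its base unfold the substrate and a lid removes the ubiquitin. In inflamed tissue interferon gamma exchanges the catalytic beta subunits for those of the immunoproteasome and induces the activator PA28. The transcription factor NFE2L1 raises the genes of the constitutive particle together when proteasome activity falls short. In heart muscle the particle takes part in the turnover of sarcomere proteins.

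Where a proteasome gene passed the test, its transcript was moderately higher in hearts of VEGF-C-treated mice; most genes did not pass, which does not show equal levels. With limma on the log2 values and an adjusted p of 0.05 as the threshold, 5 of 47 genes rose, 0 fell and 42 did not pass. The 5 were Psme3, Psmf1, Psmb7, Psmd12 and Psmd14, which encode an activator, the inhibitor, a catalytic beta subunit and 2 lid subunits, and their means were 18.4% to 28.7% higher. The share of 10.6% stands beside 15.7% of all genes called, 7.05% higher and 8.61% lower. It also stands beside 14.1% called higher and 5.62% called lower among the 8183 genes with a mean log2 value of at least 10, a level that 40 of the 47 reached and that was chosen after the values were seen. The share of proteasome genes called higher was thus near the background, and no larger than among well-expressed genes.

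**Figure D1:**
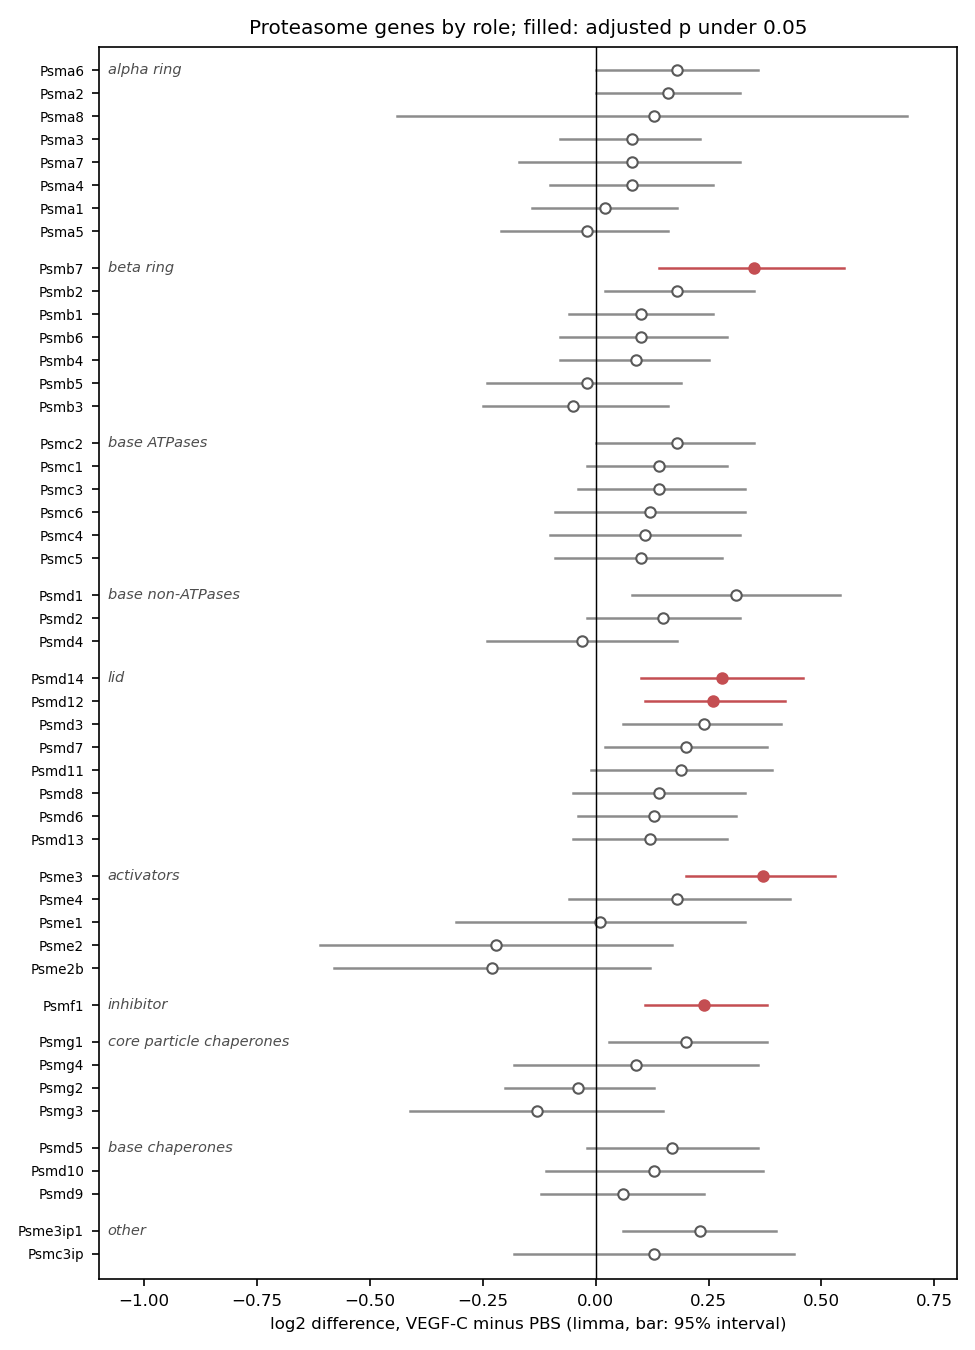
Log2 difference between VEGF-C and PBS hearts for each of the 47 genes, in rows by role, with the 95% interval of the limma fit as a bar and filled points for genes with an adjusted p under 0.05. Of the points 39 lie above 0, and the 5 filled ones lie between 0.24 and 0.37.

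Of the 47 differences 39 were positive, and of those of all genes tested 9453 of 18835. Among the genes with a mean log2 value of at least 10 it was 5685 of 8183. The median was 0.13, against 0.00 over all genes tested and 0.11 over those 8183 genes. All VEGF-C libraries lay above all PBS libraries in 8 genes and below them in 0. Of all genes 11.5% were apart in the first direction and 11.6% in the second. Of the 8183 genes 1796 and 572 were, so the 8 of 47 were no larger a share. The sign of the median rests on how libraries are scaled. Scaled by library totals alone, the median of all genes moved by -0.19, the median of the proteasome genes was -0.06 and 0 were called; the distance of 0.13 between the 2 medians was the same. Over all genes the calls were 1328 higher and 1621 lower, against 243 and 3572 with library totals and 797 and 1920 with upper-quartile factors. What follows is therefore relative to the typical gene.

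**Figure D2:**
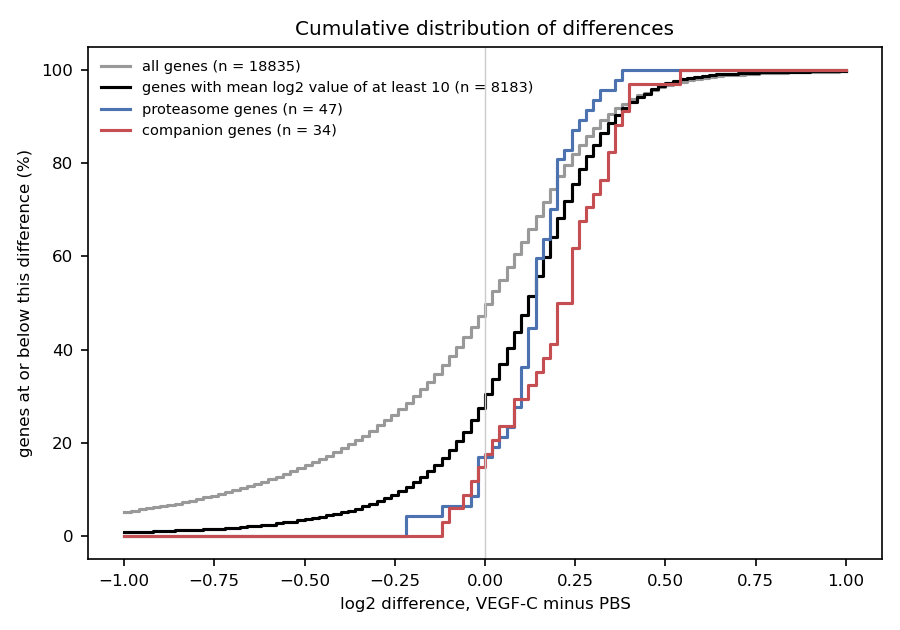
Cumulative share of genes by log2 difference, for all genes, for genes with a mean log2 value of at least 10, for the 47 proteasome genes and for 34 companion genes of the pathway. The proteasome curve crosses its middle at 0.13, close to that of well-expressed genes at 0.11, and the companion curve at 0.21.

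The promoters of the genes that rose are shown to let their letters be set beside those of catalytic subunits that did not pass. NFE2L1 binds the antioxidant response element, searched here as TGACNNNGC or TGAGNNNGC on both strands of windows from 250 bases before to 50 bases after the start (RefSeq, GRCm38.p6). The table held windows for 39 of the 47 genes, with none for Psmb7, Psma8, Psmb1, Psmb2, Psmc3, Psmd3, Psmd7 and Psmg2. Each line gives the 100 bases before the start, 5′ to 3′ on the strand of the gene, with matches in capitals.
Psme3 (chr11:101316113-101316212, plus strand): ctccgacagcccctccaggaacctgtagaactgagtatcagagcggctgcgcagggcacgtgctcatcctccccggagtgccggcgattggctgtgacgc
Psmf1 (chr2:151741311-151741410, minus strand): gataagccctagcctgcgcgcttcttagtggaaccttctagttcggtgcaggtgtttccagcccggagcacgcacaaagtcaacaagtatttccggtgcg
Psmd12 (chr11:107479428-107479527, plus strand): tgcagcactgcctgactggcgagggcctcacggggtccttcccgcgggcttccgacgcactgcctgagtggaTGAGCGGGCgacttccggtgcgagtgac
Psmd14 (chr2:61711594-61711693, plus strand): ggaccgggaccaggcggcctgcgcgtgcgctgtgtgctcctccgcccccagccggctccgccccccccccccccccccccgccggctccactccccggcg
Psmb5 (chr14:54617996-54618095, minus strand): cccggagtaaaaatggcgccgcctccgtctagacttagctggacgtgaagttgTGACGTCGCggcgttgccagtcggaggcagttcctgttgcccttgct
Psmb6 (chr11:70525257-70525356, plus strand): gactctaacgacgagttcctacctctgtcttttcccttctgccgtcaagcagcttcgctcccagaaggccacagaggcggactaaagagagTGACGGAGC

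Either form was present in 17 of the 39 genes with a window (43.6%), against 8314 of all 27025 genes with one (30.8%). The form TGACNNNGC was in 6 of 39 (15.4%, against 14.0% of all genes) and TGAGNNNGC in 13 of 39 (33.3%, against 19.8%), and both forms were in Psmc6 and Psmd12. Of the 4 genes that rose and had a window, Psmd12 alone held a match, at base -28 before the start with a further one at -247. Psmb5 (match at -47) and Psmb6 (-9) hold the other form close to the start, and neither passed the test. A match is a run of letters and no evidence of binding. All genes with a window include genes without values here, and motif shares were not taken over the genes with values alone. The content of G and C was set beside the 12257 genes with values and a window, a different background. By that measure the windows were about as rich, with a median of 58.5% against 60.0%.

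In the alpha rings, which have no catalytic sites and form the gate, 0 of 8 genes passed. Differences were between -0.02 and 0.18 with a median of 0.08. Psma6 had 5948, 5471, 6433 and 5684 normalized counts in PBS replicates 1 to 4 and 6948, 7058, 5933 and 6787 in VEGF-C replicates 1 to 4. Psma2 had 6155, 5249, 5645 and 5574 in PBS and 6314, 6451, 5884 and 6641 in VEGF-C. In both genes 3 of the 4 VEGF-C libraries were above every PBS library and VEGF-C replicate 3 was not. Psma6 differed by 0.18 ± 0.08 (log2, SE; limma adjusted p = 0.146) and Psma2 by 0.16 ± 0.07 (limma adjusted p = 0.151). Psma3 had 5916, 5192, 6021 and 5611 normalized counts in PBS and 5944, 6287, 5928 and 5812 in VEGF-C. Psma5 was level, with 5219, 4226, 4678 and 4511 in PBS and 4715, 4753, 4124 and 4740.0 in VEGF-C, and its 95% interval of the log2 difference ran from -0.21 to 0.16. Psma8, the alpha subunit of the testis, was read at 19.5 to 35.9 normalized counts, far under the 4124 to 11238 of the other alpha genes.

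In the beta rings 1 of 7 genes rose, and of the 3 constitutive catalytic subunits 1 passed. Psmb7, which encodes the subunit with trypsin-like activity, had 3941, 3166, 2965 and 3539.9 normalized counts in PBS and 4344, 4071, 4467 and 4330.0 in VEGF-C. The groups did not overlap, and PBS replicate 1 was the closest control to the treated libraries. Its mean was 3403 ± 431 in PBS and 4303 ± 166 in VEGF-C (SD, n = 4), a log2 difference of 0.35 ± 0.09 with a limma adjusted p of 0.0305. Leaving out single libraries ended the call in 5 cases, PBS replicates 2 and 3 and VEGF-C replicates 1, 3 and 4, with a limma adjusted p of at most 0.0828. Psmb7 overlaps Nek6 on the opposite strand, and whether the counting used strand is not stated in the labels. Overlaps were looked up for the 47 proteasome genes alone. In GENCODE M21 the others with values given in every library that overlap a gene with values are Psma2 (same strand), Psmd13 (either strand), Psme2b (same strand) and, on the opposite strand, Psma3, Psma6, Psmc3, Psmc3ip, Psmd1, Psmd5, Psme1 and Psme3ip1, and their values carry the same doubt.

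Psmb5, the chymotrypsin-like subunit and the main target of proteasome inhibitor drugs, had 3197, 2548, 3059.9 and 2618 normalized counts in PBS and 2974, 3051, 2684 and 2519.8 in VEGF-C. Both groups covered the same range, and the log2 difference was -0.02 with an interval from -0.24 to 0.19 (limma adjusted p = 0.900). Psmb6, the caspase-like subunit, was at 8279.9 ± 707 in PBS and 8888 ± 674 in VEGF-C (limma adjusted p = 0.430). Differences between these genes were not tested. Psmb2, a structural beta subunit, had 5818, 5233, 5660.0 and 4974 normalized counts in PBS and 6388, 6469, 5818 and 5886 in VEGF-C. Every VEGF-C library was above the controls, VEGF-C replicate 3 only just, and the log2 difference of 0.18 ± 0.07 did not pass (limma adjusted p = 0.124). Psmb1 had 9149, 8368, 9155 and 8052 in PBS and 9440.0, 9893, 8910.2 and 9047 in VEGF-C, with overlapping groups. Psmb3 and Psmb4 differed by -0.05 and 0.09.

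None of the 6 base ATPases, the ring that unfolds substrates and opens the gate, passed. All 6 differences were positive and lay within a narrow range, from 0.10 to 0.18. Psmc2 was at 7063, 6311, 6198 and 6657 normalized counts in PBS and 7449, 6624, 7816 and 7775 in VEGF-C, a log2 difference of 0.18 ± 0.08 (limma adjusted p = 0.145). Psmc1 had 8142, 7626, 7811 and 7103 in PBS and 8362, 8994, 8016 and 8329 in VEGF-C. Psmc3 had 13920.0, 13023, 13402 and 11373 in PBS and 15178, 14674, 13835 and 13351 in VEGF-C. In each of these 3 genes the lowest treated libraries lay inside the control range. The smallest difference was that of Psmc5, with 7008, 6132, 6245 and 6075 normalized counts in PBS and 7091, 7576, 6236 and 6338 in VEGF-C; the upper end of its interval was 0.28. Intervals of Psmc4 and Psmc6 reached 0.32 and 0.33, so that for none of the 6 does a missed threshold show equal levels.

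The 3 base subunits without ATPase activity are scaffolds and ubiquitin receptors, and 0 of 3 passed. Psmd1, a large scaffold subunit, was at 6071, 5034, 4762 and 5776 normalized counts in PBS and 5768, 6525, 7196 and 7308 in VEGF-C. Only VEGF-C replicate 1 lay in the control range. The log2 difference was 0.31 ± 0.10 (limma adjusted p = 0.0677), and it did pass without PBS replicate 1 (limma adjusted p = 0.0392) or without VEGF-C replicate 1 (0.0465). Psmd2, the other scaffold, had 17886, 14997, 15632 and 15119 normalized counts in PBS and 18236, 17545, 17251 and 17554 in VEGF-C; PBS replicate 1 stood among the treated libraries and the other 3 controls below them all. Psmd4, a ubiquitin receptor, showed no such pattern, with 8432, 6989, 7560.3 and 6464 in PBS and 7723, 7692, 6789 and 6547 in VEGF-C and an interval of the log2 difference from -0.24 to 0.18.

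The lid had the highest median of the multi-subunit groups of the particle, 0.19, with all 8 differences positive, from 0.12 to 0.28, and 2 of 8 genes called higher. Psmd14, the deubiquitinase that removes ubiquitin chains as substrates enter, had 3437, 2768, 3246 and 3049 normalized counts in PBS and 3976, 3972, 3633 and 3601 in VEGF-C. Psmd12, a scaffold of the lid, had 5179, 4455, 4798 and 4693 in PBS and 5365, 5955, 5872 and 5744 in VEGF-C. The groups did not overlap in either gene. Psmd14 rose by 0.28 ± 0.08 (log2, SE; limma adjusted p = 0.0420), from 3125 ± 286 to 3796 ± 207 (SD, n = 4), and Psmd12 by 0.26 ± 0.07 (limma adjusted p = 0.0315), from 4781 ± 301 to 5734 ± 261. Psmd14 kept its call only without PBS replicate 1 (limma adjusted p up to 0.0991 otherwise), and Psmd12 only without PBS replicate 1 or VEGF-C replicate 1 (up to 0.0865).

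Psmd3, a further scaffold of the lid, was at 9573, 8761, 8244 and 8083 normalized counts in PBS and 10868, 10649, 9449 and 9813 in VEGF-C. PBS replicate 1 lay above VEGF-C replicate 3, the sole overlap, and the log2 difference was 0.24 ± 0.08 (limma adjusted p = 0.0699). Psmd13 had 5765, 5326, 6015 and 5136 normalized counts in PBS and 6006, 6654, 5810.2 and 5731 in VEGF-C, the smallest difference of the lid. Psmd11, the subunit phosphorylated by protein kinase A, differed by 0.19, Psmd7, the inactive partner of Psmd14, by 0.20, and Psmd8 and Psmd6 by 0.14 and 0.13 (limma adjusted p of 0.125 or more for each). By the adjusted p in the authors' deposited table, 8 of the 47 genes were higher at the same threshold, where 10.2% of all genes were. Among the 8183 genes with a mean log2 value of at least 10 it was 1627, no smaller a share. Beside the 5 called here the 8 held Psmd1 (0.0376), Psmd3 (0.0430) and Psme3ip1 (0.0470), by the adjusted p in the authors' deposited table.

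**Figure D3:**
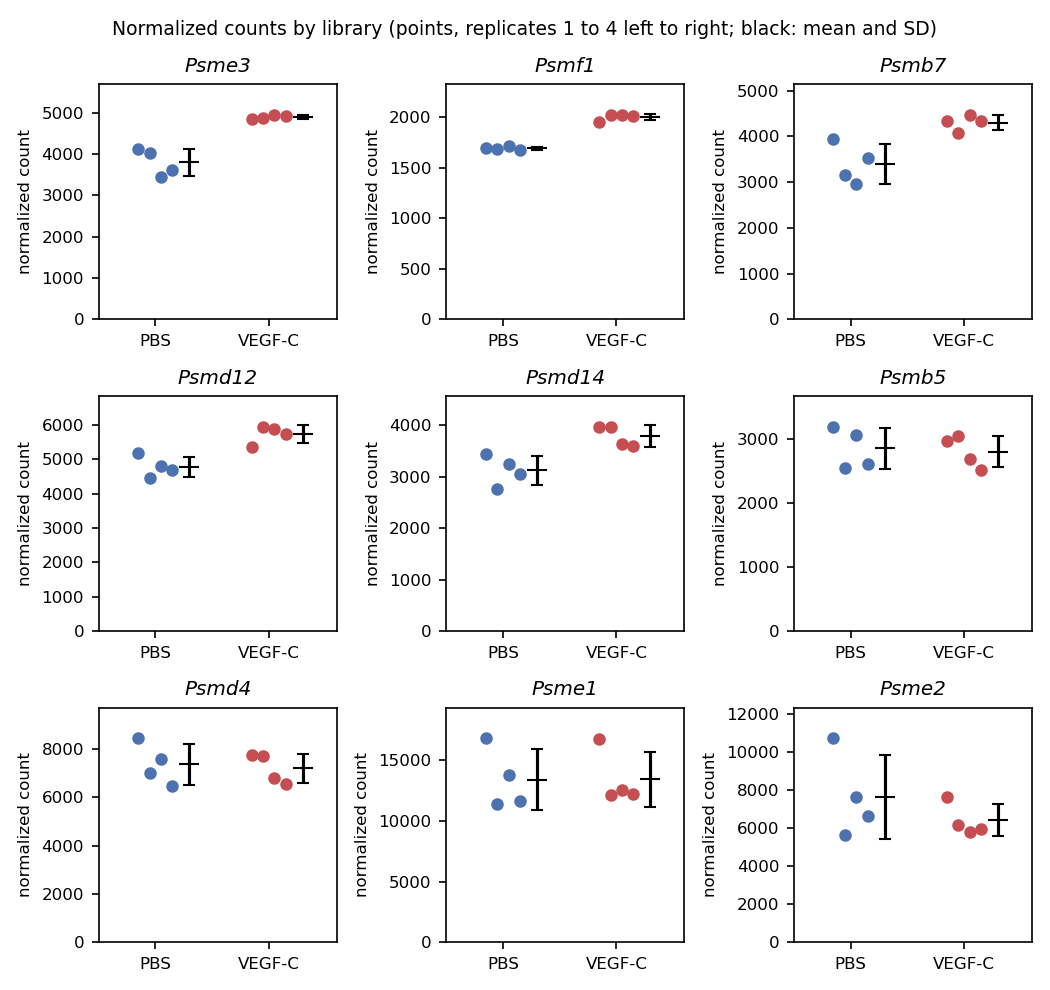
Normalized counts in each of the 4 PBS and 4 VEGF-C libraries, with the group mean and SD in black, for the 5 genes that rose and for Psmb5, Psmd4, Psme1 and Psme2. The groups are apart in the first 5 panels and overlap in the other 4, where PBS replicate 1 is the highest control.

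Of the 5 activators 1 rose. Psme3, which encodes PA28 gamma, a nuclear activator that serves degradation without ubiquitin and is not part of the interferon response, had the smallest p of the 47 genes. It was at 4123, 4030.2, 3443 and 3619 normalized counts in PBS and 4840.3, 4880.4, 4943 and 4919 in VEGF-C. The treated libraries lay close together and above all controls. The mean went from 3804 ± 325 to 4896 ± 45.0 (SD, n = 4), a rise of 28.7% and a log2 difference of 0.37 ± 0.07 (limma adjusted p = 0.00993). It kept its call without any 1 of the 8 libraries (limma adjusted p up to 0.0332) and lost it with library totals (0.0975). Psme3ip1, whose product binds PA28 gamma in the nucleus, had 1889.7, 2052, 2052 and 1786 in PBS and 2288, 2427, 2292 and 2116 in VEGF-C. These groups were apart as well, but the log2 difference of 0.23 ± 0.08 did not pass (limma adjusted p = 0.0674).

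Psme1 and Psme2, the alpha and beta chains of the interferon-induced PA28, did not pass. Psme1 was at 16815, 11369, 13746 and 11614 normalized counts in PBS and 16739, 12095, 12572 and 12244 in VEGF-C. Psme2 was at 10718, 5611, 7643 and 6611 in PBS and 7644, 6182, 5814 and 5976 in VEGF-C. Replicate 1 was the highest library of each group in both genes, and the groups overlapped. The log2 difference was 0.01 for Psme1 (interval from -0.31 to 0.33) and -0.22 for Psme2 (interval from -0.61 to 0.17; limma adjusted p = 0.413). Without PBS replicate 1 that of Psme2 was -0.05, and without PBS replicate 2 it was -0.36. Psme2b is a near copy of Psme2: the transcripts were 99.4% identical over 794 aligned bases, it overlaps 2 other genes on its own strand, and its reads cannot be told from theirs with certainty. It had 813, 506, 587 and 569 normalized counts in PBS and 589.5, 513, 430.2 and 554 in VEGF-C, a log2 difference of -0.23 that was -0.09 without PBS replicate 1 and -0.14 without VEGF-C replicate 3.

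Psme4, the large single-chain activator PA200, had 13609, 9918, 9645 and 10664 normalized counts in PBS and 11357, 12225, 13161 and 12642 in VEGF-C. PBS replicate 1 was the highest of all 8 libraries and the other 3 controls were below every treated one. The log2 difference was 0.18 ± 0.11 (limma adjusted p = 0.273), and 0.29 without PBS replicate 1 (limma adjusted p = 0.0350). The inhibitor Psmf1, or PI31, which also binds the proteasome for transport in cells, had little spread in either group: 1693, 1683, 1713 and 1678 in PBS and 1956, 2019, 2021 and 2014 in VEGF-C. It rose from 1692 ± 15.4 to 2002 ± 30.9 (SD, n = 4), by 0.24 ± 0.06 on the log2 scale (limma adjusted p = 0.0263). Its log2 difference was 0.24 or 0.25 whichever library was left out, and the call ended on omission of PBS replicates 2 and 4 and VEGF-C replicates 2, 3 and 4 in turn (limma adjusted p at most 0.0720).

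Chaperones that assemble the particle did not pass, 0 of 4 for the core particle and 0 of 3 for the base. Psmg1, which pairs with Psmg2 to guide the alpha ring, had 942, 935, 869 and 902 normalized counts in PBS and 1124, 1055, 1053 and 974 in VEGF-C. Its partner Psmg2 had 1393, 1269.7, 1291 and 1368 in PBS and 1322, 1212, 1306 and 1348 in VEGF-C. The groups were apart in Psmg1 (log2 difference 0.20 ± 0.08, limma adjusted p = 0.107) and overlapped in Psmg2 (-0.04 ± 0.07). Psmg3 and Psmg4 form the next pair in assembly. Psmg3 had 368, 307, 315 and 277 in PBS and 289, 319.6, 262 and 282 in VEGF-C, and Psmg4 had 825, 732, 955 and 737 in PBS and 953, 957, 746 and 799 in VEGF-C. Both overlapped between the groups.

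Among the base chaperones Psmd5 had 1357, 1597, 1741 and 1579.5 normalized counts in PBS and 1755, 1799, 1754 and 1725 in VEGF-C. Here PBS replicate 1 was the lowest library, in contrast to most subunits. Psmd10, known as gankyrin, had 804, 738, 965 and 776 in PBS and 995, 879, 801 and 905 in VEGF-C. Psmd9 had 1249, 1251, 1363 and 1413 in PBS and 1351, 1511, 1316 and 1317 in VEGF-C, with a log2 difference of 0.06 ± 0.08. Groups overlapped in all 3 genes. Psmc3ip, a protein of meiotic recombination that matched by symbol only, was at 185, 149.7, 144 and 155 in PBS and 169, 169, 166 and 188 in VEGF-C.

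Set per length, the subunits of the particle were far from equal in transcript level although most enter it in equal number. Mean normalized counts were divided by the length of the principal transcript in GENCODE M21. The median over the 31 genes of the rings, base and lid without Psma8 was 4284 per kb in PBS and 4746 per kb in VEGF-C. The range in PBS went from 1739 per kb for Psmd1 to 10418 per kb for Psma7, a ratio of 5.99. By role the median was highest for beta ring genes, 6311 per kb, and lowest for lid genes, 2774 per kb. The core particle chaperones had a median of 1065 per kb, the base chaperones of 508 per kb, and the inhibitor Psmf1 was at 444 per kb. Psme1 was at 12038 per kb, above every ring, base and lid gene. Untranslated and alternative exons change such values. The lengths used were 2911 bases for Psma2 and 2846 for Psma3, against 914 (Psma7) to 1239 (Psma5) for the other alpha genes without Psma8. Before division by length, the PBS means of the alpha genes without Psma8 went from 4659 (Psma5) to 9522 (Psma7). The ratio and the order of roles thus depend on the lengths used, and small steps in this order carry no weight.

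**Figure D4:**
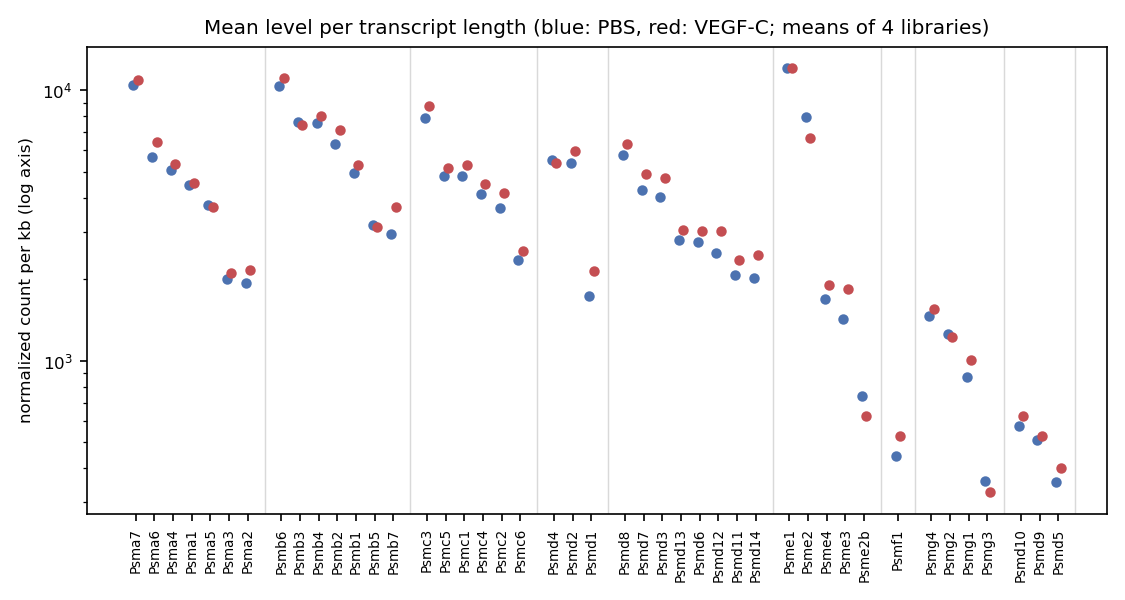
Mean normalized count per kb of transcript, on a log axis, in PBS (blue) and VEGF-C (red) hearts, by role from left to right: alpha ring, beta ring, base ATPases, base non-ATPases, lid, activators, inhibitor, core particle chaperones, base chaperones. In PBS the chaperones and the inhibitor reach at most 1463 per kb, while ring genes reach 10418 per kb; Psma8 and the 2 genes that match by symbol only are not drawn.

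The median deviation of the 47 genes from their own means was 0.04, -0.14, -0.02 and -0.12 in PBS replicates 1 to 4 and 0.08, 0.11, 0.01 and 0.04 in VEGF-C replicates 1 to 4 (log2). Roles differed within a library: in PBS replicate 1 the activators had a median deviation of 0.34, the base chaperones of -0.11 and the inhibitor of -0.12. By the median over all 47, PBS replicate 1 overlapped the treated libraries, and it was the highest control in 33 of the 47 genes. In that library the 6 interferon gamma response genes averaged 12.79, against 11.15 to 11.89 in the other controls and 11.15 to 11.60 in VEGF-C. The immunoproteasome genes averaged 13.18 there, against 12.06 to 12.57 in the other controls. Without PBS replicate 1 the number of proteasome genes called higher was 10, adding Psmd1, Psmd3, Psmd7, Psmd11 and Psme4 to the 5. Of all genes 6.73% were called higher then, and the share of well-expressed genes was not counted. Omitting any other single library gave 1 to 4. Dropping the library that was the highest control in most of these genes raises their differences by itself. The 10 are therefore not read as a larger share, and whether they are one was not tested. The median difference of the 47 genes was 0.15 without this library and 0.13 with it.

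The catalytic subunits of the immunoproteasome, Psmb8, Psmb9 and Psmb10, had negative differences, -0.39 ± 0.26, -0.49 ± 0.20 and -0.21 ± 0.20 (log2, SE), and 0 of 3 passed (limma adjusted p = 0.329, 0.128 and 0.511). Psmb9 had 5922, 2817, 3588 and 3218 normalized counts in PBS and 3282, 2547, 2361 and 2531 in VEGF-C. Psmb8 had 8079, 3400.2, 6067 and 3821 in PBS and 5337, 3520.4, 3462 and 3323 in VEGF-C, and Psmb10 had 16602, 8024, 10353 and 9123 in PBS and 11266, 9601, 8104 and 8005 in VEGF-C. Groups overlapped in all 3 genes, and PBS replicate 1 was the highest library in each. Without it the log2 differences were -0.16 for Psmb8, -0.26 for Psmb9 and 0.01 for Psmb10. Psmb9 was below the threshold by the adjusted p in the authors' deposited table (0.0425).

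**Figure D5:**
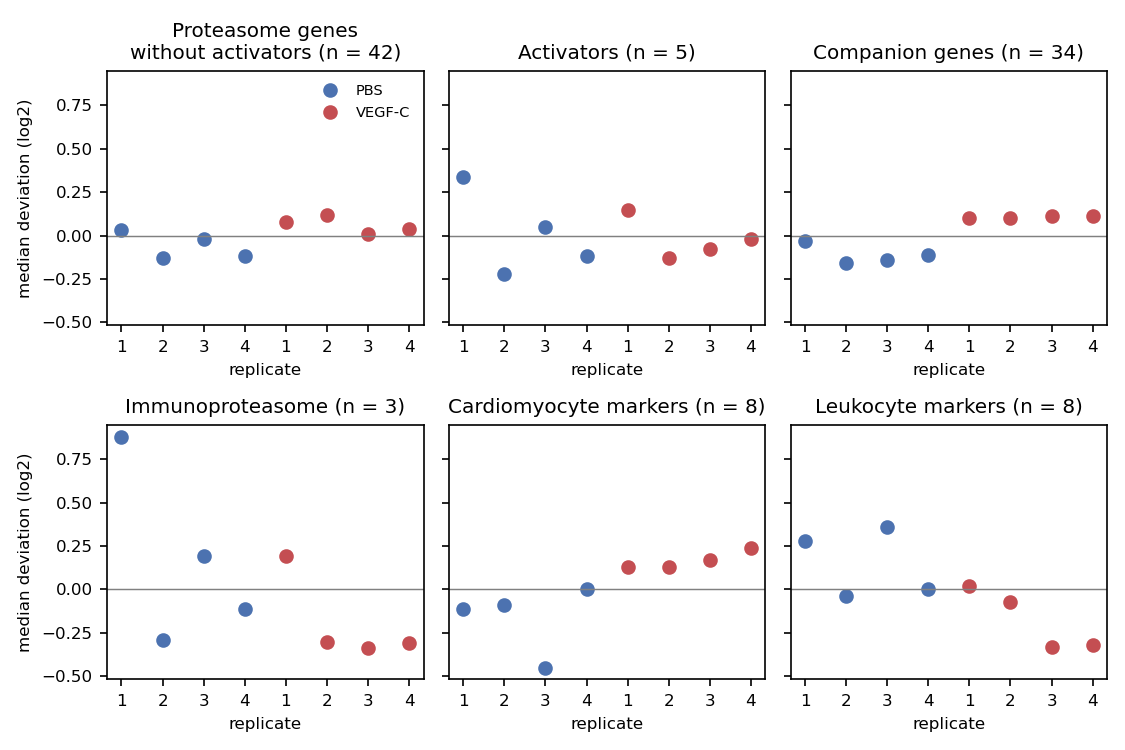
Median deviation of each group of genes from their own means over the 8 libraries (log2), by replicate, for PBS (blue) and VEGF-C (red). The companion genes are apart between the groups (-0.16 to -0.03 against 0.10 to 0.11), and PBS replicate 1 is highest for the activators (0.34) and the immunoproteasome (0.88).

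The companion genes of the pathway, 35 genes around the proteasome whose symbols do not begin with Psm, had a larger share called higher. The difference in share was not tested. The list was chosen with earlier results of these data known, so its share is no independent comparison. With values for all but Paaf1, 11 of 34 rose (32.4%, against 7.05% of all genes and 14.1% of those with a mean log2 value of at least 10), 0 fell, and the median difference was 0.21. Of the ubiquitin shuttles, which carry tagged proteins to the particle, Ubqln1, Ubqln2 and Ubqln4 rose. Of the segregase that extracts tagged proteins from complexes and membranes, Vcp and its cofactor Nploc4 rose and Ufd1 (-0.00 ± 0.07) did not pass. Uba1, the main enzyme that activates ubiquitin, rose, while 0 of 4 ubiquitin genes and 0 of 3 ubiquitin ligases (Trim63, Fbxo32 and Stub1) passed. In the ubiquitin gene Ubb and in Stub1 every VEGF-C library was above every PBS library (limma adjusted p = 0.148 and 0.0914). The groups overlapped in the other ubiquitin genes and ligases. Further genes that rose were the subunit Adrm1 and, among associated factors, Ecpas, Zfand5 and Akirin2. Some of these calls were fragile. Akirin2 was no longer called whichever single library was dropped (limma adjusted p between 0.0551 and 0.104). Ecpas stayed called only when PBS replicate 1 or VEGF-C replicate 1 or 2 was dropped, and Ubqln4 only when PBS replicate 1, 2 or 3 was. Zfand5 missed the threshold narrowly, and only when PBS replicate 2 was dropped (limma adjusted p = 0.0504).

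Ubqln2 had the largest log2 difference of these, 0.53 ± 0.10 (limma adjusted p = 0.00804), with 1292, 1407, 1228 and 1519 normalized counts in PBS and 1858, 1735, 2048 and 2217 in VEGF-C. Nploc4 had 5775, 5193, 5002 and 5754 in PBS and 7081, 6679.6, 7077 and 6928 in VEGF-C (0.36 ± 0.07). Ubqln1 had 4019, 3579, 3679.9 and 3877 in PBS and 4863, 4656, 4939.7 and 4540.0 in VEGF-C (0.33 ± 0.07). These 3 genes and Uba1 kept their calls without any 1 library (limma adjusted p up to 0.0393). Uba1 was at 17055, 14699, 13689 and 16249.8 normalized counts in PBS and 19722, 20491, 19814 and 19987 in VEGF-C. Vcp was at 26137, 23326, 23679 and 25246 in PBS and 29821, 30544, 31079 and 30536 in VEGF-C. Groups were apart in both, and the call of Vcp (0.31 ± 0.07, limma adjusted p = 0.0181) was lost without PBS replicate 2 or VEGF-C replicate 3 (up to 0.0571). With library totals 1 of the 34 companion genes was called higher, Ubqln2, and 1 lower, Zfand2a.

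Adrm1, a ubiquitin receptor of the base that has its own naming, had 5620.2, 4853, 5106 and 4801 normalized counts in PBS and 6826, 6683, 6072 and 6031 in VEGF-C. It rose by 0.33 ± 0.08 (log2, SE; limma adjusted p = 0.0186), with a loss of the call without PBS replicate 4 or VEGF-C replicate 1 (up to 0.0528). Sem1, the smallest lid subunit, had 9958, 9511, 10955 and 9214 in PBS and 11449, 11304, 10053 and 8722 in VEGF-C. Pomp, the chaperone that matures the beta subunits, had 9528, 6305, 8409.8 and 6379 in PBS and 7907, 7708, 7049 and 6178 in VEGF-C. Neither Sem1 (0.06 ± 0.10) nor Pomp (-0.07 ± 0.14) passed. Nfe2l1, the regulator of proteasome genes, was at 36349.7, 29629.8, 27611 and 30222 normalized counts in PBS and 36739, 34681, 33680.3 and 34889 in VEGF-C, and PBS replicate 1 again lay among the treated libraries (0.18 ± 0.10, limma adjusted p = 0.212). Nfe2l2, the related factor of the oxidative stress response, had 5091, 5053, 5095 and 5285 in PBS and 5816, 5562, 6118 and 6795 in VEGF-C; the groups were apart and the difference of 0.24 ± 0.07 missed the threshold (limma adjusted p = 0.0530).

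These are values of a tissue of many cell types, so fewer cells of a type and less RNA per cell cannot be told apart. Cell type markers moved alongside. Of 8 cardiomyocyte markers 7 had positive differences (median 0.38), 1 was called higher, Actn2, and their summed normalized counts were 2401073 to 3252489 in PBS and 3326936 to 3610719 in VEGF-C. Of 8 leukocyte markers 5 had negative differences (median -0.52), and 3 were called lower, Coro1a, Cd79a and Ptprc. Cd3e, Adgre1 and Laptm5 went the other way (0.40 ± 0.21, 0.14 ± 0.12 and 0.13 ± 0.15) and were not called. The sums over the 8 markers were 26529 to 38018 in PBS and 24248 to 30719 in VEGF-C. Of 4 fibroblast markers 2 had positive differences and Col1a1, a collagen chain, was called higher (0.69 ± 0.14, limma adjusted p = 0.00926). Col1a2 (0.25 ± 0.14), Dcn (-0.12 ± 0.15) and Pdgfra (-0.21 ± 0.09) were not called. Of 6 lymphatic endothelial markers 6 had positive differences and Flt4, the receptor VEGFR-3, was called higher (0.40 ± 0.12, limma adjusted p = 0.0481). That call held on omission of PBS replicate 3 or VEGF-C replicate 4 but of no other library. Prox1, Pdpn and Lyve1 differed by 0.01 ± 0.10, 0.05 ± 0.16 and 0.11 ± 0.35, and Ccl21a and Mmrn1 by 0.27 ± 0.28 and 0.43 ± 0.32. In 5 of the 6 markers VEGF-C replicate 2 was the highest of the 8 libraries. Median deviations of the markers were 0.11, 0.57, -0.24 and -0.01 in VEGF-C replicates 1 to 4. In PBS replicates 1 to 4 they were -0.57, -0.21, 0.26 and 0.07 (log2). Of 4 blood endothelial markers 3 had positive differences and 0 were called. No marker of these lists was at 0 in a group. The part of these shifts in the differences of the proteasome genes was not tested.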

How the data were processed

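RNA of heart tissue was sequenced in 8 libraries, 4 per group; per the labels' protocols the RNA had a RIN above 8.0 and a stranded mRNA kit was used. The submitters' processing notes name the build GRCm39 and, with no order or role, DESeq2 1.38.3, Subread 2.0.1 with featureCounts, STAR 2.7.10a and Trim Galore 0.6.10. They name no annotation, strand setting or filter. The authors deposited log2 values for 18835 of 56941 genes. These values are the log2 of x + 4, with x the reads of a gene over a median-of-ratios factor of its library: 100.0% of values gave whole reads within 0.01. Here x is called the normalized count. The authors' adjusted p-value and log2 fold change are in the same deposited table. Read totals over these genes were 61713842 to 76803952 in PBS and 53679737 to 65230480 in VEGF-C; every proteasome gene had at least 10 reads in every library.

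Groups came from the treatment labels. Column headers give a group and a running number, which matches no library name; it serves as replicate number here and pairs nothing. The labels do not say that each library is a separate animal, and p-values measure the spread between libraries, which may be technical. limma 3.58.1 (R 4.3.3) was fitted to all genes, on the log2 values as deposited, with 1 factor, 6 residual degrees of freedom and a mean-variance trend, with two-sided Benjamini-Hochberg adjustment over all genes and a threshold of 0.05; it was tested on simulated data. A log2 difference is VEGF-C minus PBS on the log2(x + 4) scale, with the SE of the model. Alternatives were library totals, upper-quartile and TMM factors, offsets of 1 and 16, a filter of 10 reads in 4 libraries, limma-voom on the reads, a robust fit, a fit without trend, the authors' adjusted p-value and leaving out each library.

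The genes and lists were chosen with earlier results of these data known. Values in every library are given for up to 3 genes with the smallest p and the one with the smallest difference in each role, for Psmb5, Psmd4, Psme1, Psme2, Psme4 and Psmf1, for Psmb8, Psmb9 and Psmb10, and for 10 companion genes: Adrm1, Sem1, Pomp, Nfe2l1 and Nfe2l2 by name, and the 5 others with the smallest p. Promoter sequences are those of RefSeq on GRCm38.p6, matched by symbol; gene coordinates on the deposited build are not used here. Of the companion genes called higher, 1 is counted but not reported here by name.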

Additional observations from a re-analysis of the deposited data

Results flagged for a closer look

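Among the 47 genes whose libraries are given one by one, each group of 4 was searched for a library far from the other 3. In 94 such groups 5 were found, and chance alone gives about 1 in 20. VEGF-C replicate 1 was the library in 3 of them: in Psme1 it had a log2 value of 14.03 while the other treated libraries had 13.56 to 13.62, in Psmb8 at 12.38 against 11.70 to 11.78, and in Psmf1 at 10.94, with the other 3 all at 10.98. Psma5 was low in VEGF-C replicate 3, at 12.01 against 12.20 to 12.22. Psmc3ip was high in VEGF-C replicate 4, at 7.58 against 7.41 to 7.43.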

How the results depend on the processing

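No paired analysis was possible because the column numbers match no library name and mark no shared litter, batch or day. The number of proteasome genes called higher, 5, was 0 with library totals, 2 with upper-quartile factors, 2 without a mean-variance trend, 8 by the authors' adjusted p-value and 1 to 10 with 1 library left out (omitting PBS replicate 1 gave 10, VEGF-C replicate 1 gave 4, PBS replicates 3 and 4 and VEGF-C replicate 2 gave 2 each, PBS replicate 2 and VEGF-C replicates 3 and 4 gave 1 each). No alternative called one lower. The median difference of 0.13 was -0.06 with library totals and 0.10 to 0.15 with 1 library left out. The 11 companion genes called higher were 1 with library totals, with 1 called lower, and 6 to 11 with 1 library left out (omitting PBS replicates 2 and 4 and VEGF-C replicate 1 gave 7 each, VEGF-C replicate 3 gave 6).

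With library totals 37 of the 47 differences were negative. Among the genes with values given in every library the sign turned in Psma2 (-0.03), Psma3 (-0.11), Psma6 (-0.01), Psmb1 (-0.09), Psmb2 (-0.01), Psmc1 (-0.06), Psmc2 (-0.02), Psmc3 (-0.05), Psmc3ip (-0.06), Psmc5 (-0.10), Psmd2 (-0.04), Psmd5 (-0.02), Psmd9 (-0.13), Psmd10 (-0.06), Psmd13 (-0.07), Psme1 (-0.18), Psme4 (-0.01), Psmg4 (-0.10), Nfe2l1 (-0.01) and Sem1 (-0.13), and in Psme1 also with upper-quartile factors (-0.05); this scaling lowers all genes. With 1 library left out the sign turned, among these genes, in Psma5, Psmb5, Psmd4, Psme1, Pomp and Psmb10, none of them called: values ranged from -0.07 to 0.03 in Psma5 and Psmb5, -0.09 to 0.04 in Psmd4, -0.10 to 0.12 in Psme1, -0.16 to 0.04 in Pomp and -0.34 to 0.01 in Psmb10. Psmd12, Psmd14 and Psmf1 lost their calls with upper-quartile factors (limma adjusted p = 0.0703, 0.0913 and 0.0688), and Psmb7, Psmd12 and Psmd14 without a mean-variance trend (0.0645, 0.0662 and 0.0802). Psmb9 was called lower with library totals (-0.68, limma adjusted p = 0.0387) and by the authors' adjusted p-value (0.0425). Other causes than the scaling were not tested.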
